A study of Homo sapiens with 6 samples.

Results

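The genes described here are the Eph receptor tyrosine kinases EPHA2, EPHA4, EPHB2, EPHB3, EPHB4 and EPHB6 and the ephrins EFNA1, EFNA4, EFNB1 and EFNB2, a receptor and ligand family that sorts cells in the colon. Of these 10 genes, the platform's probe annotation named a feature for 9, out of 12562 named genes in all, and each gene was followed through its brightest feature over the 6 arrays. EPHB2 had no feature in that annotation. An otherwise unnamed feature that carries a RefSeq accession of EPHB2 was read in its place, and EPHB2 is not counted among the 9. The cells were SW480, a human colorectal adenocarcinoma line. FOXC2 cells had received a FOXC2 construct by retrovirus, and pBabe cells, their control, had received pBabe without an insert. FOXC2 belongs to the forkhead family of transcription factors. Both kinds of cells were grown in 10% serum and harvested at 90% confluence, after a selection of 3 to 5 days in which puromycin was at 0.5 μg/mL. Each group had 3 single-colour arrays from 3 separate cultures. The labels do not say whether those cultures came from separate transductions, so p-values cover the spread between cultures of what may be 1 selected population.

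Eph receptors and ephrins are both held on the cell surface, so signalling needs cell contact. The receptor signals forward into its own cell and the ephrin signals in reverse into the other, and contact often ends in repulsion. Ephrins of class A are anchored by a lipid and those of class B cross the membrane, and receptors of each class mostly bind ligands of the same class. In the intestine, WNT signalling through TCF factors drives EPHB2 and EPHB3 at the crypt base while ephrin-B ligands are high toward the crypt top, and in mice this opposition keeps the cell types in their places. In human colorectal tumours, EPHB receptors are known to be high early and to be lost in many advanced tumours.

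FOXC2 cells had more EPHB6 and EFNB2 and, by a smaller margin, more EPHA4 than pBabe cells, and less EPHB3. EPHB6 rose 3.57-fold (95% confidence interval 2.59 to 4.93), EFNB2 2.39-fold (1.49 to 3.82) and EPHA4 1.71-fold (1.27 to 2.29), while EPHB3 was at 0.484 of its pBabe level (0.375 to 0.623). EPHB2, read by accession, rose 1.85-fold (1.40 to 2.46). EPHA2, EPHB4, EFNA1, EFNA4 and EFNB1 did not pass the test. The rises of EFNB2 and EPHA4 were less stable, as each passed in 2 of the 6 fits with an array left out. In total 3 of the 9 members rose, 1 fell and 5 did not pass at an adjusted p under 0.05 in a limma fit over all 33497 features. By that rule 26.3% of all features passed, 13.3% higher and 13% lower, and 28.4% of the named genes. The members' median log2 fold change was 0.23, beside 0.03 for all features. The FOXC2 and pBabe arrays did not overlap for 6 of the 9 members, where 45.5% of all features did not overlap. No test sets the members' counts apart from these shares.

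**Figure D1:**
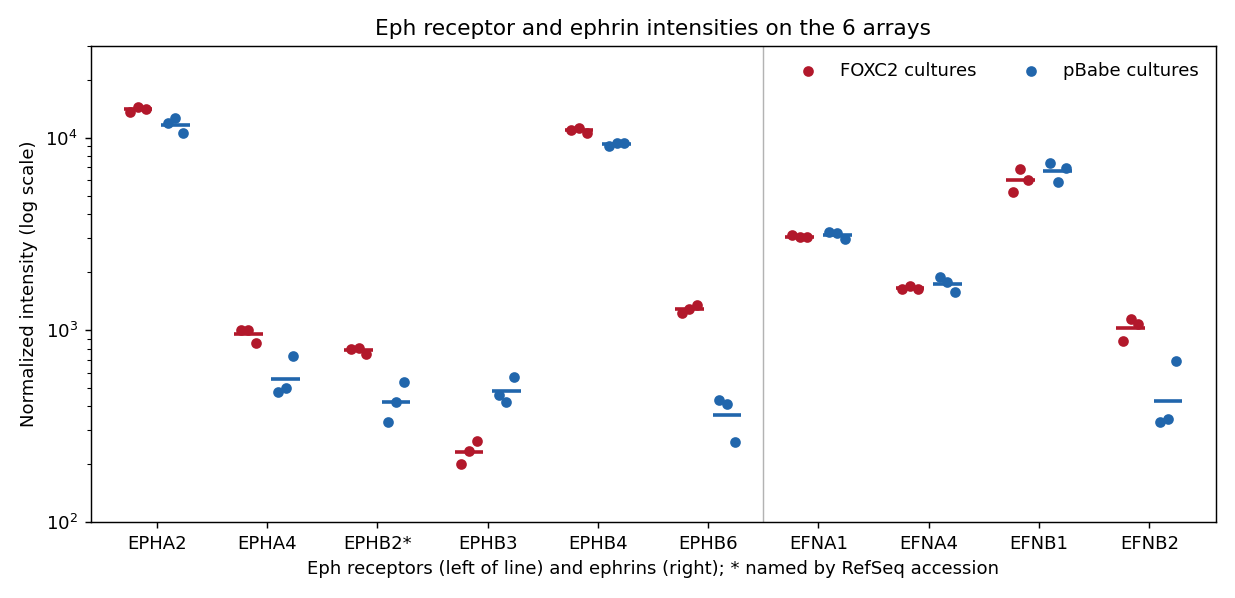
Normalized intensity (log scale) of each gene on each array, with FOXC2 cultures in red on the left and pBabe cultures in blue on the right of each pair, and a bar at the mean of the log2 values (n = 3 each). EPHB6, EFNB2, EPHA4 and EPHB2 lie higher in all 3 FOXC2 cultures, as EPHA2 and EPHB4 do by a small margin. EPHB3 lies lower, and EFNA1, EFNA4 and EFNB1 overlap.

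The labels were checked on the introduced gene. FOXC2 intensities were 8777, 8262 and 8344 in FOXC2 cultures, against 2319, 2323 and 2818 in pBabe cultures. Array medians lay between 895 and 913, and correlations across features were 0.987 to 0.990 within groups and 0.958 to 0.964 between them. The lowest value in the table was 50.0016, and detection calls and scan batches were not used here. Of 9 measured markers of colon epithelium, including the adhesion molecule EPCAM, the keratins KRT8, KRT18 and KRT19 and the intestinal factor CDX2, 6 rose and 1, KRT18, fell. KRT18 passed in 0 of the 6 fits with an array left out. The summed intensity of these markers was 73543 to 77813 in FOXC2 cultures and 67911 to 73054 in pBabe cultures. Most of it came from KRT8 and KRT18, with means of 32103 and 22698 in FOXC2 cultures and 35431 and 27896 in pBabe cultures. The folds of the 6 that rose ran from 1.38 for LGALS4 to 8.62 for VIL1, with EPCAM at 5.08. Of 4 fibroblast markers, 3 fell (PDGFRB, COL1A1 and DCN) and 0 rose, and their summed intensity was 821 to 1009 in FOXC2 cultures and 3290 to 4095 in pBabe cultures. DCN was near the lowest value of the table in FOXC2 cultures, at 77.0, 76.8 and 50.2. Of 4 leukocyte markers, 1 fell (CD3D) and 0 rose, with sums of 1899 to 2277 in FOXC2 cultures and 2102 to 2630 in pBabe cultures. Most of these sums came from CD68, which did not pass, with means of 1685 in FOXC2 and 1270 in pBabe cultures. CD3D fell 8.67-fold, a size that is uncertain because its FOXC2 values of 87.5, 94.7 and 72.4 were near the lowest in the table. The part of these marker changes in the results below was not tested. A fall in these bulk RNA values does not tell fewer expressing cells from less RNA per cell.

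The sequence just before the transcription start was searched for forkhead, TCF/LEF and E-box letters. It is shown for EPHB6 and EPHB3, the largest rise and the fall among the members, and for EFNB2 and EPHB2, the changed genes that held a motif. The windows are the 250 bases upstream of the start in RefSeq, assembly GRCh38.p14, written 5′ to 3′ along the gene. All 10 genes had such a window. Capitals mark the E-box letters CACCTG or their reverse complement, a core bound by repressors of the SNAI and ZEB families. No motif searched was found in the windows of EPHB6 and EPHB3.
EPHB6, chr7:142862506-142862755, plus strand: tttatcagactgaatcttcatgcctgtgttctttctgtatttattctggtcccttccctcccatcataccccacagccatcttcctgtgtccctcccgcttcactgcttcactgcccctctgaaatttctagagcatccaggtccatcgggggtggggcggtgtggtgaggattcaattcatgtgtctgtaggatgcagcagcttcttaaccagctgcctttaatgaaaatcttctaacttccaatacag
EPHB3, chr3:184561535-184561784, plus strand: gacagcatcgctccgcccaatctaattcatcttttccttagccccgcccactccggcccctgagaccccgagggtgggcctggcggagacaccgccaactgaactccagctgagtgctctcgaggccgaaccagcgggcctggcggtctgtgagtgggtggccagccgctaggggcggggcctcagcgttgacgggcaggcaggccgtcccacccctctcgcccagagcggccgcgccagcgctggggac
EFNB2, chr13:106535663-106535912, minus strand: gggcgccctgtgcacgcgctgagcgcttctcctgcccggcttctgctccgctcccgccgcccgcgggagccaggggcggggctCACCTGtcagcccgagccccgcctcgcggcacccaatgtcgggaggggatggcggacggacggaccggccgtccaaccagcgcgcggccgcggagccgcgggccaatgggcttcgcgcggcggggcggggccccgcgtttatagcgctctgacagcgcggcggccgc
EPHB2, chr1:22710588-22710837, plus strand: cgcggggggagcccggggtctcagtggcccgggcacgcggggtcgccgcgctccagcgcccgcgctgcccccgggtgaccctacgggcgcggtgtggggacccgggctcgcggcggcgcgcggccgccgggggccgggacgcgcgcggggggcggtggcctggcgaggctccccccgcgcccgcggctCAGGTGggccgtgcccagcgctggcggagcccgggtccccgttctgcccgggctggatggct

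The forkhead letters GTAAACA were searched on both strands and lay in 0 of the 12 windows of the 10 genes, and in 2.98% of all 35116 windows in the RefSeq table. The TCF/LEF letters TCAAAG were found in the window of EPHA2, 197 to 202 bases before the start, and in 11.2% of all windows. CACCTG was found in EFNB2, 162 to 167 bases before the start, in EPHB2, 57 to 62 bases before it, and in 17.5% of all windows. The motifs do not overlap each other in these windows. A match is a description of the letters and not a measured binding site. The windows differed widely in base composition. GC content was 48% in EPHB6, with 3 CpG dinucleotides, against 84.8% and 42 in EPHB2, 78.4% and 40 in EFNB2 and 70% and 21 in EPHB3, where the median of all windows was 58% and 11.

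EPHB6 moved furthest of the members. It is a receptor whose kinase domain lacks catalytic activity and which signals through partner receptors. Its intensities were 1218, 1282 and 1354 in FOXC2 cultures, against 432, 411 and 262 in pBabe cultures. All FOXC2 cultures lay well above all pBabe cultures, and pBabe replicate 3 was the lowest. EPHB6 rose by 1.84 ± 0.195 on the log2 scale (SE; limma adjusted p 0.00107), and 1.42% of all features changed by as much or more in either direction. It passed with each array left out in turn, with a log2 fold change between 1.61 and 1.97.

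EPHB3, a WNT-driven receptor of the crypt base, went the other way. Its intensities were 200, 235 and 263 in FOXC2 cultures, against 459, 420 and 569 in pBabe cultures. The groups did not overlap, although the feature was below the median feature intensity of 903 in both. EPHB3 had a log2 fold change of -1.05 ± 0.154 (SE; limma adjusted p 0.00389), which ran from -1.14 to -0.92 with each array left out, passing each time. EPHB3 is the 1 member that drops out when dim features are removed.

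EPHB2, the receptor that shares the crypt base with EPHB3, was higher in FOXC2 cells. Its intensities were 793, 807 and 754 in FOXC2 cultures, against 333, 424 and 537 in pBabe cultures. The log2 fold change of EPHB2 was 0.89 ± 0.172 (SE; limma adjusted p 0.0112). The 95% confidence intervals of the log2 fold changes lay wholly above 0 for EPHB2, at 0.48 to 1.30, and wholly below 0 for EPHB3, at -1.41 to -0.68. EPHB2 passed with each array left out, and its feature was below the median feature intensity in both groups, as that of EPHB3 was.

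EPHA4, a receptor that binds ephrins of both classes, read 1002, 1002 and 856 in FOXC2 cultures, against 477, 496 and 729 in pBabe cultures. The groups did not overlap, but pBabe replicate 3 came close to the lowest FOXC2 culture. On the log2 scale EPHA4 rose by 0.77 ± 0.178 (SE; limma adjusted p 0.0208). EPHA4 passed in 2 of the 6 fits with an array left out: its adjusted p was 0.00505 and its log2 fold change 0.97 without pBabe replicate 3, and it no longer passed without FOXC2 replicate 1 (0.0612), FOXC2 replicate 2 (0.0640), pBabe replicate 1 (0.0607) or pBabe replicate 2 (0.0646).

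EPHA2 and EPHB4 were bright in both groups. EPHA2, a receptor of epithelial cells that is often abundant in carcinomas, read 13535, 14514 and 14160 in FOXC2 cultures, against 11989, 12639 and 10563 in pBabe cultures. EPHB4, the main receptor for EFNB2, read 10959, 11197 and 10566 in FOXC2 cultures, against 9047, 9421 and 9398 in pBabe cultures. For both genes every FOXC2 culture lay above every pBabe culture, by a small margin. The log2 fold change of EPHA2 was 0.27 ± 0.0992 (SE; limma adjusted p 0.0929) and that of EPHB4 was 0.23 ± 0.0802 (SE; limma adjusted p 0.0758), so neither passed. The folds were 1.20 (95% confidence interval 1.02 to 1.42) for EPHA2 and 1.17 (1.03 to 1.34) for EPHB4. With a prior variance that follows intensity both passed, at adjusted p 0.0204 for EPHA2 and 0.0231 for EPHB4, and with dim features removed they did so at 0.0329 and 0.0345.

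**Figure D2:**
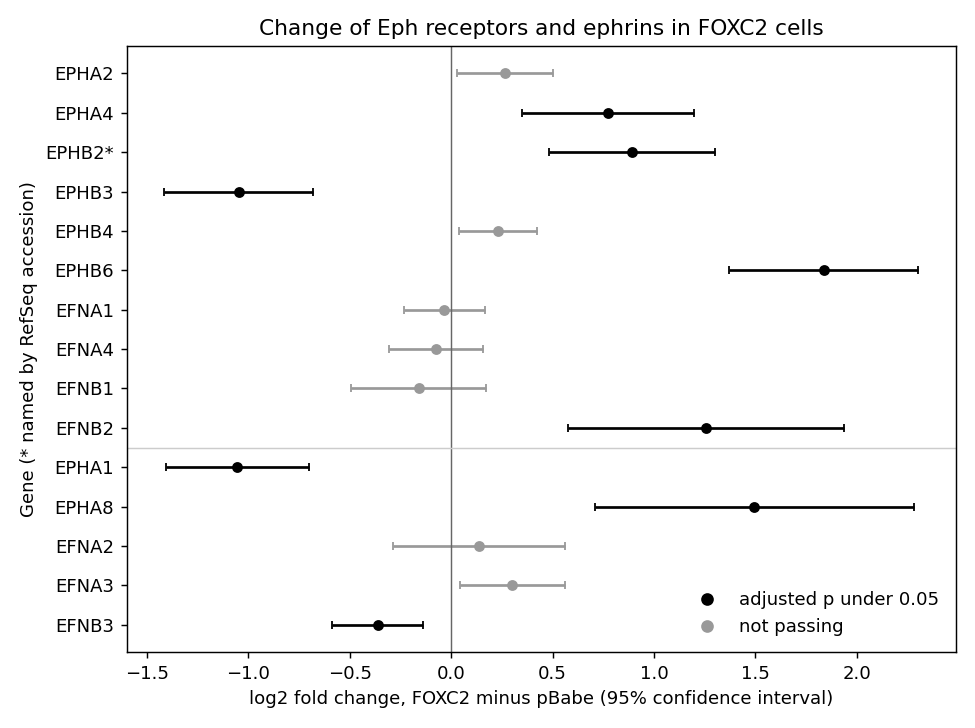
Points give the log2 fold change of each gene, FOXC2 minus pBabe (3 arrays each), with bars for the 95% confidence interval of the limma fit, black where the adjusted p was under 0.05. The 10 genes described here stand above the grey line and the 5 other measured family members below it, and EPHB6 at 1.84 and EPHB3 at -1.05 lie farthest apart of the 10.

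Among the ligands, EFNB2 was the 1 that passed. It is a transmembrane ephrin known as the partner of EPHB4 and as a mark of arterial endothelium. Its intensities were 875, 1137 and 1073 in FOXC2 cultures, against 331, 345 and 686 in pBabe cultures. All FOXC2 cultures were higher, with pBabe replicate 3 nearest to them. On the log2 scale EFNB2 rose by 1.26 ± 0.286 (SE; limma adjusted p 0.0201). EFNB2 passed in 2 of the 6 fits with an array left out: its adjusted p was 0.00206 and its log2 fold change 1.60 without pBabe replicate 3, and it no longer passed without FOXC2 replicate 2 (0.0622), FOXC2 replicate 3 (0.0621), pBabe replicate 1 (0.0593) or pBabe replicate 2 (0.0618). Of 4 measured endothelial markers, CLDN5 and EGFL7 rose, by 0.98 and 0.86 on the log2 scale, ESAM fell by 0.53 and TIE1 did not pass. CLDN5 was dim, with pBabe values of 71.2, 101 and 65.8 near the lowest in the table, so the size of its rise is uncertain. With single arrays left out CLDN5 no longer passed without FOXC2 replicate 1, pBabe replicate 1, FOXC2 replicate 3 or pBabe replicate 3; ESAM no longer passed without replicate 1 or replicate 2 of either group. The summed intensity of the 4 markers was 2615 to 2722 in FOXC2 cultures and 1897 to 2187 in pBabe cultures. EGFL7 was the brightest of them, with means of 1899 in FOXC2 and 1046 in pBabe cultures. The part of these markers in the EFNB2 result was not tested.

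The other measured transmembrane ligand of the 10, EFNB1, read 5236, 6890 and 6003 in FOXC2 cultures, against 7415, 5855 and 6955 in pBabe cultures. The groups overlapped. Its log2 fold change was -0.16 (95% confidence interval -0.49 to 0.17; limma adjusted p 0.436), an interval that lay below that of EFNB2, at 0.58 to 1.93. The difference between these ligands was not tested.

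The lipid-anchored ligands showed the smallest differences of the 9. EFNA1, the ligand of EPHA2, read 3100, 3042 and 3042 in FOXC2 cultures, against 3250, 3190 and 2964 in pBabe cultures. These values overlapped and differed by -0.03 on the log2 scale (95% confidence interval -0.23 to 0.16; limma adjusted p 0.799). EFNA4, an ephrin of the same class, had a pair of features. The brighter read 1629, 1693 and 1624 in FOXC2 cultures, against 1881, 1774 and 1569 in pBabe cultures, and differed by -0.07 on the log2 scale (limma adjusted p 0.607). The dimmer read 1475, 1464 and 1347 in FOXC2 cultures, against 1626, 1649 and 1661 in pBabe cultures, and differed by -0.20 (limma adjusted p 0.116). Neither feature of EFNA4 passed. The groups overlapped on the brighter feature and not on the dimmer.

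**Figure D3:**
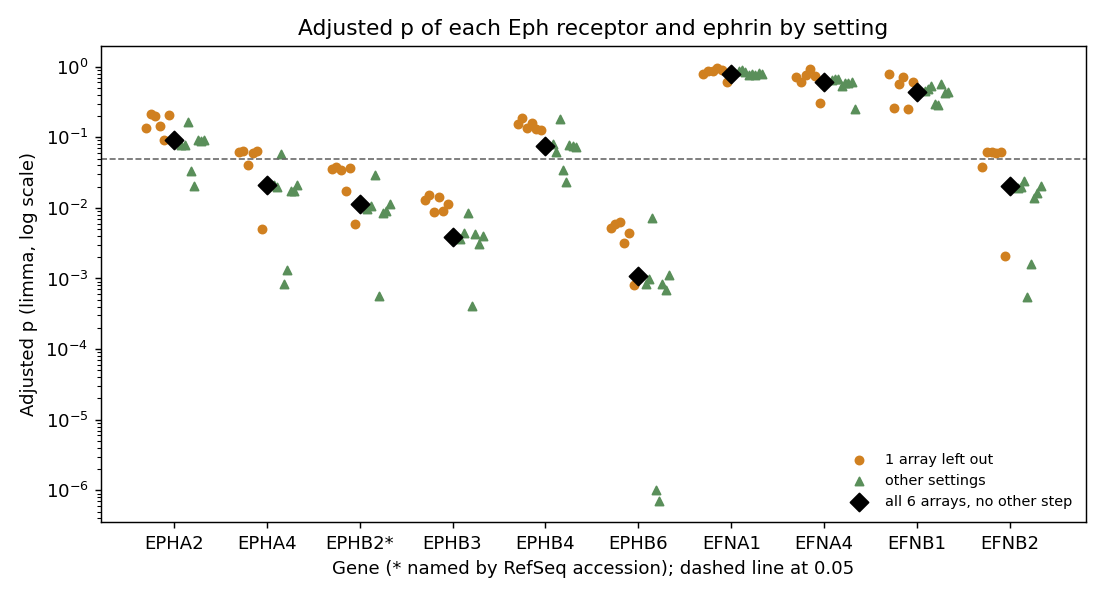
Adjusted p (log scale) of each gene by limma with all 6 arrays (black), with 1 array left out (orange) and under the other settings tried (green), with a dashed line at 0.05. EPHB6, EPHB3 and EPHB2 stay under the line throughout, EPHA4 and EFNB2 cross it when single arrays are left out, EPHA4 also does so in 1 other setting, and EPHA2 and EPHB4 cross it downward in 2 settings each.

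For EPHA4, EFNB2 and EPHB6, pBabe replicate 3 sat apart from the other pBabe cultures, in no fixed direction. Replicate 3 was the pBabe culture nearest to the FOXC2 cultures for EPHA4, EPHB2 and EFNB2, and the farthest from them for EPHB3 and EPHB6.

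Of the 12 remaining genes of the family, 5 were measured, and 1 rose, 2 fell and 2 did not pass. Over all features 26.3% passed, 13.3% higher and 13% lower, and no test sets these 5 genes apart from those shares. EPHA8, a receptor best known from the nervous system, read 245, 248 and 309 in FOXC2 cultures, against 76.2, 66.9 and 165 in pBabe cultures. The pBabe values were near the lowest value in the table, so the size of the log2 fold change of 1.50 ± 0.331 (SE; limma adjusted p 0.0182) is uncertain. The other EPHA8 feature gave 1.46 (limma adjusted p 0.00715), with pBabe values of 66.0, 85.9 and 55.6 that lay as near the lowest, so its size is uncertain too. EPHA8 no longer passed without FOXC2 replicate 3 (0.0604) or pBabe replicate 1 (0.0587). EPHA1, the founding receptor of the family, read 196, 189 and 234 in FOXC2 cultures, against 360, 432 and 499 in pBabe cultures, and fell by 1.05 on the log2 scale (limma adjusted p 0.00331). EFNB3, the remaining transmembrane ligand, read 1800, 1765 and 1871 in FOXC2 cultures, against 2355, 2139 and 2509 in pBabe cultures. Its log2 fold change was -0.36 (limma adjusted p 0.0312), and it passed in 1 of the 6 fits with an array left out, with adjusted p between 0.0347 and 0.0930. The log2 fold change was 0.30 for EFNA3 (limma adjusted p 0.0859) and 0.14 for EFNA2 (0.606).

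By genome position the family showed 3 clusters of measured genes. EFNA4, EFNA3 and EFNA1 follow each other on chromosome 1 with 0 protein-coding genes between them in the RefSeq order, and none of the 3 passed. EPHA8 and EPHB2, with 3 coding genes between them on the same chromosome, were both higher in FOXC2 cells. EPHB6 and EPHA1, with 15 coding genes between them on chromosome 7, changed in opposite directions.

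Of 34 measured kinases, adaptors and phosphatases that carry Eph and ephrin signals, 4 rose, 4 fell and 26 did not pass, and their median log2 fold change was 0.04. Over all features 26.3% passed, so the count for these genes lay near the background. The receptor phosphatase PTPRB, the adaptor GRB7 and the kinase ABL1 rose, by 1.75, 1.11 and 0.70 on the log2 scale. PTPRB was below the median feature intensity in both groups, at 406, 591 and 533 in FOXC2 cultures against 173, 114 and 172 in pBabe cultures. The phosphatase PTPN1 fell by 0.68, RGS3, which binds class B ephrins in reverse signalling, by 0.62, and the adaptor NCK1 by 0.54. NCK1 passed in 1 of the 6 fits with an array left out, with pBabe replicate 3 left out. The kinases SRC, FYN, YES1 and LYN did not pass.

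Of 24 measured junction partners and shedding proteases, 6 rose, 7 fell and 11 did not pass, with a median of 0.10, beside 26.3% of all features passing, 13.3% higher and 13% lower. E-cadherin, CDH1, which EPHB signalling helps to place at contacts, rose by 1.03, the membrane protein CAV1 by 0.78 and the tight junction protein CLDN1, a binding partner of EFNB1, by 0.76. CDH1 was dim in both groups, at 178, 233 and 195 in FOXC2 cultures against 96.7, 113 and 86.1 in pBabe cultures. Its pBabe values were near the lowest in the table, so the size of its rise is uncertain. MMP7, a matrix protease whose FOXC2 intensities of 64.7, 105 and 92.6 were near the lowest in the table, fell by 3.02, the chemokine receptor CXCR4 by 1.94 and the protease MMP2 by 1.75. ADAM10, the protease that cuts ephrins and Eph receptors at contacts, had a log2 fold change of -0.11 and did not pass. With each array left out 3 to 6 of the list rose, and 3 did so without FOXC2 replicate 2 or FOXC2 replicate 3.

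Of 26 measured genes of the crypt base, where EPHB2 and EPHB3 are high, 7 rose, 4 fell and 15 did not pass, with a median of 0.21, beside 13.3% higher and 13% lower over all features. The transcription factors PROX1 and ASCL2 rose by 2.11 and 1.89, and CTNNB1, which encodes beta-catenin, by 1.18. The WNT receptor FZD7, the receptor inhibitor LRIG1 and the WNT inhibitor NKD1 fell by 0.94, 0.87 and 0.62. FZD7 was dim in both groups, at 124, 108 and 150 in FOXC2 cultures against 253, 262 and 216 in pBabe cultures. Of 18 measured genes of the crypt top, where ephrin-B ligands are high, 4 rose, 2 fell and 12 did not pass, with a median of 0.13, beside the same background. The microvillus protein VIL1, the peptidase ANPEP and the peptide GUCA2B rose by 3.11, 0.81 and 0.77, while PLAC8 fell by 2.77 and the cell cycle inhibitor CDKN1A by 0.59. GUCA2B no longer passed without pBabe replicate 3, FOXC2 replicate 1 or FOXC2 replicate 3, and CDKN1A no longer did without pBabe replicate 1, pBabe replicate 2 or FOXC2 replicate 2. PLAC8 was dim in FOXC2 cultures, at 149, 143 and 72.4. VIL1 is also among the epithelial markers above, as CDH1 is, and PTPRO stands in both the crypt base and the phosphatase lists.

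**Figure D4:**
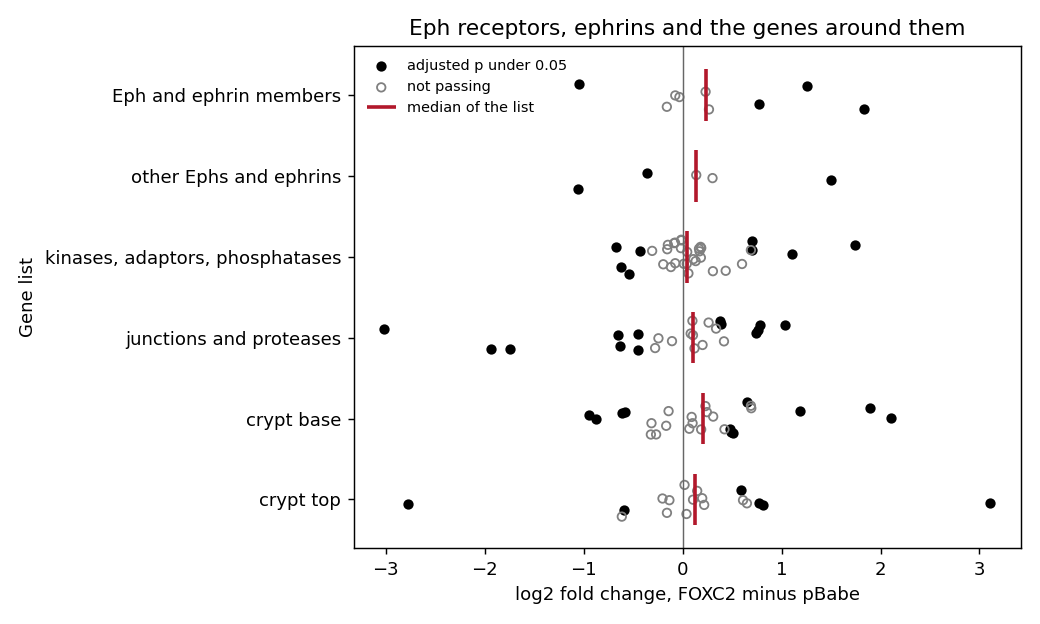
Each point is the log2 fold change of 1 gene, FOXC2 minus pBabe (3 arrays each), filled where the adjusted p was under 0.05, with a red bar at the median of its list. The list medians lie between 0.04 and 0.23, and each of the 6 lists has genes that passed on both sides of 0.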

How the data were processed

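Total RNA from 6 SW480 cultures was labelled with Cy3 and hybridised to NimbleGen arrays, per the labels. The authors deposited linear intensities made with RMA, per the submitters' processing notes. RMA's version and any build were not given in the sources used here. Of the 45033 genes that the design text counts on a chip, 33497 features were analysed. Features took the symbol of the platform's probe annotation (13730 with 1 symbol, 0 with several, 19767 with none). EPHB2 and 6 list genes without an annotated feature were named through their RefSeq accession, a step added after seeing the data. The members and lists were chosen with earlier results of these data known. A further list is not reported here.

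Intensities were taken to log2 with no offset or filter and fitted with limma 3.58.1 (lmFit, eBayes; R 4.3.3), FOXC2 minus pBabe, with p-values two-sided and adjusted by Benjamini-Hochberg over all 33497 features. The fit was tested on simulated data with independent normal values and few changed features. That setting differs from these data, so the test does not bear on the calls made here. Arrays carry no depth, and their number limits precision. All 10 genes and the measured rest of the family are named; other lists give up to 3 passing genes with the largest changes in each direction. SRC, FYN, YES1, LYN, ADAM10, TIE1, PTPRO, KRT8, KRT19, LGALS4 and CD68 were named after their values were seen. Alternatives were quantile normalization, median centring, a replicate block, each array left out, an offset of 16, array weights, a trended robust prior, averaging all features of a gene, and removal of features whose mean reached the median of all values in neither group.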

Additional observations from a re-analysis of the deposited data

How the results depend on the processing

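With each array left out, 5752 to 6768 features passed, 2732 to 3518 of them higher and 3020 to 3475 lower; the lowest total was without FOXC2 replicate 3. Of the 9 members, 1 to 3 rose and 1 fell in those fits. The count that rose was 1, with EPHA4 and EFNB2 lost, where FOXC2 replicate 2, pBabe replicate 1 or pBabe replicate 2 was absent. It was 5 under the trended robust prior and 5 after removal of dim features, through EPHA2 and EPHB4, and that removal leaves 0 that fell because EPHB3 is not tested there. EFNA2, which never passed, had log2 fold changes from -0.0079, without pBabe replicate 1, to 0.33, without pBabe replicate 2. The numbers were not taken as pairs, since the labels do not say that a number marks a shared batch. In a later check, same-numbered cultures did not deviate together (correlations -0.10, -0.12 and -0.06). With the replicate block 5960 features passed, 2917 of them higher, and EPHA4 (adjusted p 0.0576) and EFNB3 (0.0735) no longer did, nor did NCK1 (0.0993), CDKN1A (0.0666), KRT18 (0.110), CLDN5 (0.0689) and ESAM (0.0697), while the other members kept their calls. For 49 named genes, 362 of 376 results under the other settings and 253 of 294 with an array left out kept direction and call. Without detection calls, changes of dim genes such as EPHA8 have uncertain size.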
